A study of Mus musculus with 20 samples.

Results

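The genes described here are 32 markers of T cells and of cytotoxic lymphocytes, the cells that kill tumor cells on contact, in mouse bladders, bladder tumors and metastases. They were chosen by name from a fixed list, and the array row with the highest mean was to stand for a gene with several rows. Of the 32 genes, 31 were measured, each on 1 row, among 30142 genes in all. Foxp3, the regulator of regulatory T cells, lies on a row that carries 3 gene symbols and was not used. The list holds 16 T cell identity genes, 15 of them measured, and 16 cytotoxic and natural killer (NK) genes, all measured.

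RNA of 20 tissue samples was hybridised to 20 whole-transcript microarrays, 1 array a sample. All mice were FVB/N and carried the same genotype, controls included, which includes floxed Rb alleles (Rb f/f) and germline loss of the Rb relative p107 (p107-/-). Treated bladder (n = 3) and the single treated metastasis came from mice given CM272 by intraperitoneal injection at 5 mg/kg per day for 30 days plus cisplatin at 6 mg/kg once per week. CM272 inhibits the histone methyltransferase G9a and DNA methyltransferases, and cisplatin crosslinks DNA. Metastasis (n = 4) and bladder tumor (n = 7) came from mice whose bladder had received an adenovirus coding for Cre recombinase, and control bladder (n = 5) is described as normal bladder of the same line. The virus deletes floxed alleles only in the cells it reaches, whereas p107 is absent from every cell, lymphocytes included. The labels do not give the organ of a metastasis or how much tumor a treated bladder held. They number the samples of a group without saying that each came from another animal, and the p-values below then reflect sample-to-sample spread that could in part be technical.

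A T cell recognises a peptide through its T cell receptor, whose signal is passed on by the CD3 chains encoded by Cd3e, Cd3d, Cd3g and Cd247. The coreceptors CD8 and CD4 divide T cells into killers and helpers. Killer T cells and NK cells store perforin and granzymes in granules, release them onto a target, and secrete interferon gamma, which raises antigen presentation in nearby cells. Bladder tumors are known to hold such cells in differing numbers, and checkpoint antibodies used against bladder cancer act through them. A bulk tissue array reads all cells of a sample together, so fewer lymphocytes and less RNA per lymphocyte cannot be told apart.

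Some of these genes are known in T cells to be silenced or opened by DNA methylation, which falls on the base pair CG, and Ifng is the textbook case. For that reason the promoter windows of Ifng, of the granzyme gene Gzmb and of the T cell receptor chain gene Cd3e are shown, each from 250 bases before to 50 bases after the start, with every CG in capitals (RefSeq, GRCm38.p6). Ifng lies at chr10:118440796-118441095 on the plus strand, Gzmb at chr14:56262285-56262584 on the minus strand and Cd3e at chr9:45009562-45009861 on the minus strand.
Ifng: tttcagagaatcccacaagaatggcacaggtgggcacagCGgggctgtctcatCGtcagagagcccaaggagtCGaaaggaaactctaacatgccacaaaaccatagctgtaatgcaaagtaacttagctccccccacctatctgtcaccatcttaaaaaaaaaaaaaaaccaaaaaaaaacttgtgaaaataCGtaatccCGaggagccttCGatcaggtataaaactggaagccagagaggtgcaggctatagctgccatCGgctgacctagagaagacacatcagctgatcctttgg
Gzmb: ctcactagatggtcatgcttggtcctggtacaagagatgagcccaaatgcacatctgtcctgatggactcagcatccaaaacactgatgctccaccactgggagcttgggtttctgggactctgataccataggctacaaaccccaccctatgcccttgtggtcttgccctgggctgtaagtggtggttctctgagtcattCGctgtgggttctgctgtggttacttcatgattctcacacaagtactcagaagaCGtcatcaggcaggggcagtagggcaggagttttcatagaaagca
Cd3e: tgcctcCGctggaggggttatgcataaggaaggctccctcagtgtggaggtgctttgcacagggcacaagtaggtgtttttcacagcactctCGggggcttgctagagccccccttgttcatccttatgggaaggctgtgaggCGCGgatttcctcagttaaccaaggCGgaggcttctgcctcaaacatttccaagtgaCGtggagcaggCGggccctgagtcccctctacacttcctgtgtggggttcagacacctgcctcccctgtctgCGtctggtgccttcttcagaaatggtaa
The windows hold 7, 2 and 8 CG pairs in this order, and CG reads the same on both strands. Windows were found for 23 of the 32 genes. Of genes with several windows the first listed was taken. Their median was 4 CG pairs, from 0 at Ncr1 to 21 at Tbx21, against a median of 7 over 32851 windows of all genes, of which 5.43% hold none. Of the 23 genes, 17 had this window at or below that median, and 18 had any window there. Methylation itself was not measured in these samples.

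The level of each array's background was set with 1561 genes for chemosensory receptors of the nose and tongue, which bladder tissue is taken not to use. The mean of these receptor genes ran from 4.62 in the treated metastasis to 5.26 in bladder tumor 1 on the log2 scale. The number of arrays limits the precision of every value below. In 8 arrays (metastasis 3 and 4, bladder tumor 3, 4 and 5, control bladder 4, 5 and 6) the deviations from the mean of all arrays, taken across genes, correlated with those of no other array above r = 0.14. In the other 12 arrays the highest such correlation lay between 0.33 and 0.61. The 8 are called near-mean arrays below. They include none of the 4 arrays from treated mice, and Xist, the RNA of the silenced X chromosome of females, read 10.8 and 10.9 in control bladder 1 and 2, the controls outside this set, and at most 6.44 elsewhere. Of the urothelium markers 11 of 14, and of the smooth muscle and stroma markers 12 of 14, lay above background in more than 10 arrays. These counts pool the arrays and do not bear out the label of any single array. The mean of the urothelium markers was 6.57 to 7.62 in treated bladder, 5.35 in treated metastasis, 5.22 to 6.58 in metastasis, 5.56 to 9.03 in bladder tumor and 6.55 to 7.79 in control bladder.

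Most of the lymphocyte genes could not be told from this background. A gene counted as above background in an array where its value exceeded the 95th percentile of the receptor genes of that array. By this measure 2 of the 31 genes, Cd3g in 17 arrays and Lat in 18, were above background in more than 10 of the 20 arrays, against 28.7% of all 30142 genes (8662). No cytotoxic gene was. Gzma, Nkg7, Klrb1c and Klrd1 were above it in 3 arrays each, and Cd8b1 and Gzmb in 2 arrays each. The other 23 genes, 12 of T cell identity and 11 cytotoxic, never were. Metastasis 1, the treated metastasis and bladder tumor 6 had 5, 3 and 3 cytotoxic genes above background, and no other array had more than 1. These arrays had the lowest limits, 5.44, 5.48 and 5.43, against at least 5.68 in the others. With the 90th percentile as the limit 3 genes counted (Gzma was added), and with the 99th percentile 0 did. Probes differ in how well they bind, so a value inside the receptor range does not show that a gene is silent, and values of different genes are not compared with each other.

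**Figure D1:**
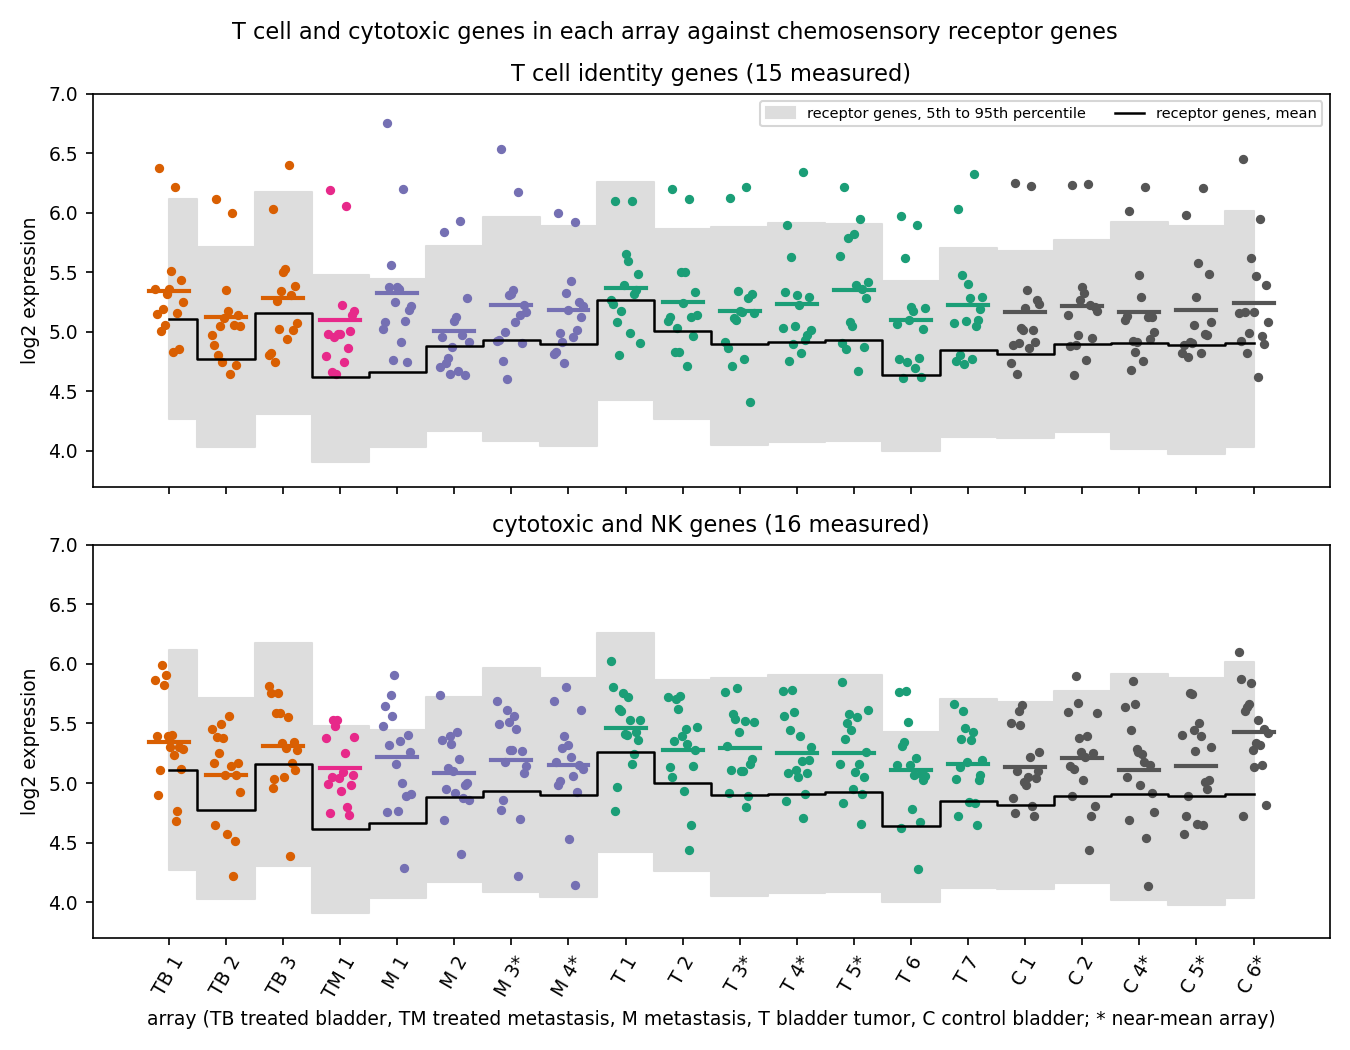
Each point is 1 gene in 1 array (log2 expression on the y axis), with T cell identity genes above and cytotoxic and NK genes below, arrays along the x axis by group, coloured bars for the mean of the genes, the grey band for the 5th to 95th percentile of chemosensory receptor genes and the black line for their mean. The points above the band are mostly Cd3g and Lat, above it in 17 and 18 of 20 arrays.

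Among the chains that pass on the T cell receptor signal, Cd3e and Cd3g spanned 0.93 and 0.91 over the 20 arrays on the log2 scale, and Cd3d and Cd247 spanned 0.58 and 0.46. Values are given in the order of the replicate numbers of the labels, which are 1, 2, 4, 5 and 6 for control bladder, and for the 7 bladder tumors the lowest, median and highest are given. Cd3e read 5.36, 4.97 and 4.81 in treated bladder, 4.80 in treated metastasis and 5.02, 4.71, 4.92 and 4.81 in metastasis. Tumors read 4.91, 5.08 and 5.64, and controls 4.74, 5.14, 5.10, 4.82 and 5.16. The groups overlapped, with the highest value in bladder tumor 5 and the lowest in metastasis 2. Cd3d read 5.15, 4.89 and 4.82 in treated bladder, 4.98 in treated metastasis and 5.08, 4.96, 4.93 and 4.83 in metastasis. In bladder tumor the values were 4.75, 4.91 and 5.33, and in control bladder 4.89, 4.88, 5.13, 4.89 and 4.92. Every array outside the tumors lay inside the range of the tumors. Cd3g read 6.37, 6.11 and 6.03 in treated bladder, 6.19 in treated metastasis and 6.75, 5.84, 6.54 and 6.00 in metastasis. Values of 5.90, 6.10 and 6.21 were found in bladder tumor and of 6.25, 6.23, 6.02, 5.98 and 6.45 in control bladder. Metastasis held both ends of its range, with metastasis 1 and 3 highest and metastasis 2 lowest of all 20 arrays. Cd247, the zeta chain that carries most of the receptor's signalling motifs, spanned 5.02 to 5.48 over all arrays.

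The coreceptor genes did not move together. Cd8a read 5.01, 4.81 and 4.75 in treated bladder, 4.66 in treated metastasis and 5.38, 4.74, 4.75 and 4.99 in metastasis. The tumors gave 4.61, 4.81 and 5.08, and the controls gave 4.65, 4.64, 4.68, 4.78 and 5.17. Metastasis 1 was highest, followed by control bladder 6. Cd8b1 encodes the beta chain that pairs with the product of Cd8a. Cd8b1 read 5.19, 5.05 and 5.26 in treated bladder, 4.96 in treated metastasis and 5.56, 4.78, 5.00 and 4.91 in metastasis. Tumors read 4.81, 5.48 and 5.79, and controls 4.91, 4.89, 4.92, 4.92 and 4.82. Bladder tumors 4 to 7 (5.48 to 5.79) and metastasis 1 stood above the other 15 arrays, none of which passed 5.26, while the 5 controls lay within 0.10 of each other. Cd8a did not follow this split among tumors, with 4.61 to 4.85 in tumors 4 to 7 and 4.72 to 5.08 in tumors 1 to 3. Cd4 read 5.06, 4.75 and 5.03 in treated bladder, 4.65 in treated metastasis and 4.77, 4.65, 4.60 and 4.74 in metastasis. In bladder tumor the values were 4.73, 4.90 and 5.17, and in control bladder 5.03, 4.97, 4.83, 4.91 and 4.99. All 4 metastases and the treated metastasis lay below every control for Cd4, and inside or below the range of the tumors. This held on the log2 scale only. By percentile among the receptor genes of the same array, Cd4 was at 64.8 in metastasis 1 and 57.7 in the treated metastasis. Controls 4 and 5 were at 47.8 and 53.8.

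Of the remaining T cell genes, Icos spanned the most, 0.94, and Zap70 the least, 0.46. The adhesion and costimulation receptors Cd2, Cd5, Cd6, Cd28 and Icos spanned 4.87 to 5.62, 4.98 to 5.82, 5.12 to 5.60, 4.78 to 5.36 and 4.41 to 5.35 over the 20 arrays. The kinase gene Zap70, which acts on the CD3 chains, spanned 4.62 to 5.08. Lat, the adaptor that Zap70 phosphorylates, spanned 5.89 to 6.40 and was above background in most arrays of every group. Il2ra, the interleukin 2 receptor alpha chain found on activated and regulatory T cells, spanned 4.91 to 5.42.

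The granule genes Gzma, Gzmb, Prf1 and Nkg7 spanned 0.94, 1.31, 0.75 and 0.86 over the arrays, and Gzmk spanned 0.43, the least of the 31 genes. Gzma read 5.87, 5.45 and 5.81 in treated bladder, 5.38 in treated metastasis and 5.48, 5.74, 5.69 and 5.69 in metastasis. Values of 5.16, 5.72 and 6.03 were found in bladder tumor and of 5.50, 5.60, 5.64, 5.40 and 6.10 in control bladder. Its highest values came from control bladder 6 and bladder tumor 1, and the treated bladders lay inside the range of the tumors. Gzmb read 5.39, 5.17 and 5.75 in treated bladder, 4.99 in treated metastasis and 5.65, 5.36, 5.50 and 5.18 in metastasis. The tumors gave 5.04, 5.56 and 5.85, and the controls gave 4.88, 5.14, 5.05, 4.57 and 5.87. Controls held both ends of the range, 4.57 in control 5 and 5.87 in control 6. Prf1 read 5.11, 5.39 and 5.04 in treated bladder, 5.05 in treated metastasis and 5.32, 4.95, 4.85 and 5.02 in metastasis. Tumors read 4.97, 5.14 and 5.37, and controls 5.10, 5.12, 5.45, 4.89 and 5.60. Perforin, its product, forms the pores through which granzymes enter, and control 6 again read highest. Nkg7 read 5.99, 5.25 and 5.58 in treated bladder, 5.53 in treated metastasis and 5.74, 5.13, 5.18 and 5.29 in metastasis. In bladder tumor the values were 5.35, 5.50 and 5.70, and in control bladder 5.61, 5.90, 5.86, 5.76 and 5.64. Nkg7 encodes a granule membrane protein, and 3 of 4 metastases read below every tumor and every control. Gzmk, a granzyme of memory-type T cells, spanned 4.62 to 5.05, and Fasl, the death receptor ligand, spanned 4.14 to 5.24.

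The NK cell receptor genes spanned from 0.44 (Klrb1c) to 0.87 (Ncr1) over the arrays. Klrb1c read 5.83, 5.50 and 5.75 in treated bladder, 5.48 in treated metastasis and 5.56, 5.39, 5.61 and 5.39 in metastasis. Values of 5.54, 5.60 and 5.78 were found in bladder tumor and of 5.49, 5.67, 5.66, 5.75 and 5.66 in control bladder. Klrb1c encodes the NK1.1 lectin receptor, and its groups overlapped. Ncr1 read 5.30, 4.57 and 5.05 in treated bladder, 4.93 in treated metastasis and 4.77, 4.92, 5.28 and 4.53 in metastasis. The tumors gave 4.78, 5.05 and 5.41, and the controls gave 4.98, 5.03, 4.98, 4.66 and 5.13. Ncr1 encodes NKp46, the activating receptor that defines NK cells, and its 5 groups overlapped. The lectin receptor genes Klrd1 and Klrk1 spanned 5.29 to 5.91 and 4.95 to 5.42. The interleukin 2 receptor beta chain gene Il2rb spanned 4.95 to 5.46. Cd96 and Cd226, a pair of receptors that bind the same nectin-like ligand, spanned 4.81 to 5.61 and 4.76 to 5.61.

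Ifng, the gene of interferon gamma, had the second widest range of the 31 genes, 1.18, after 1.31 for Gzmb. Ifng read 4.68, 4.22 and 4.38 in treated bladder, 4.80 in treated metastasis and 4.28, 4.40, 4.22 and 4.14 in metastasis. Tumors read 4.28, 4.70 and 5.16, and controls 4.81, 4.44, 4.53, 4.65 and 5.32. On the log2 scale all 4 metastases lay below every control, and treated bladder 2 and 3 lay below them too. Metastasis and tumor overlapped through tumor 6 at 4.28. Ifng was above background in no array, and its percentile among the receptor genes of an array ran from 7.43 to 77.4. The transcription factor genes that drive Ifng, Tbx21 and Eomes, spanned 5.00 to 5.56 and 5.05 to 5.72.

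**Figure D2:**
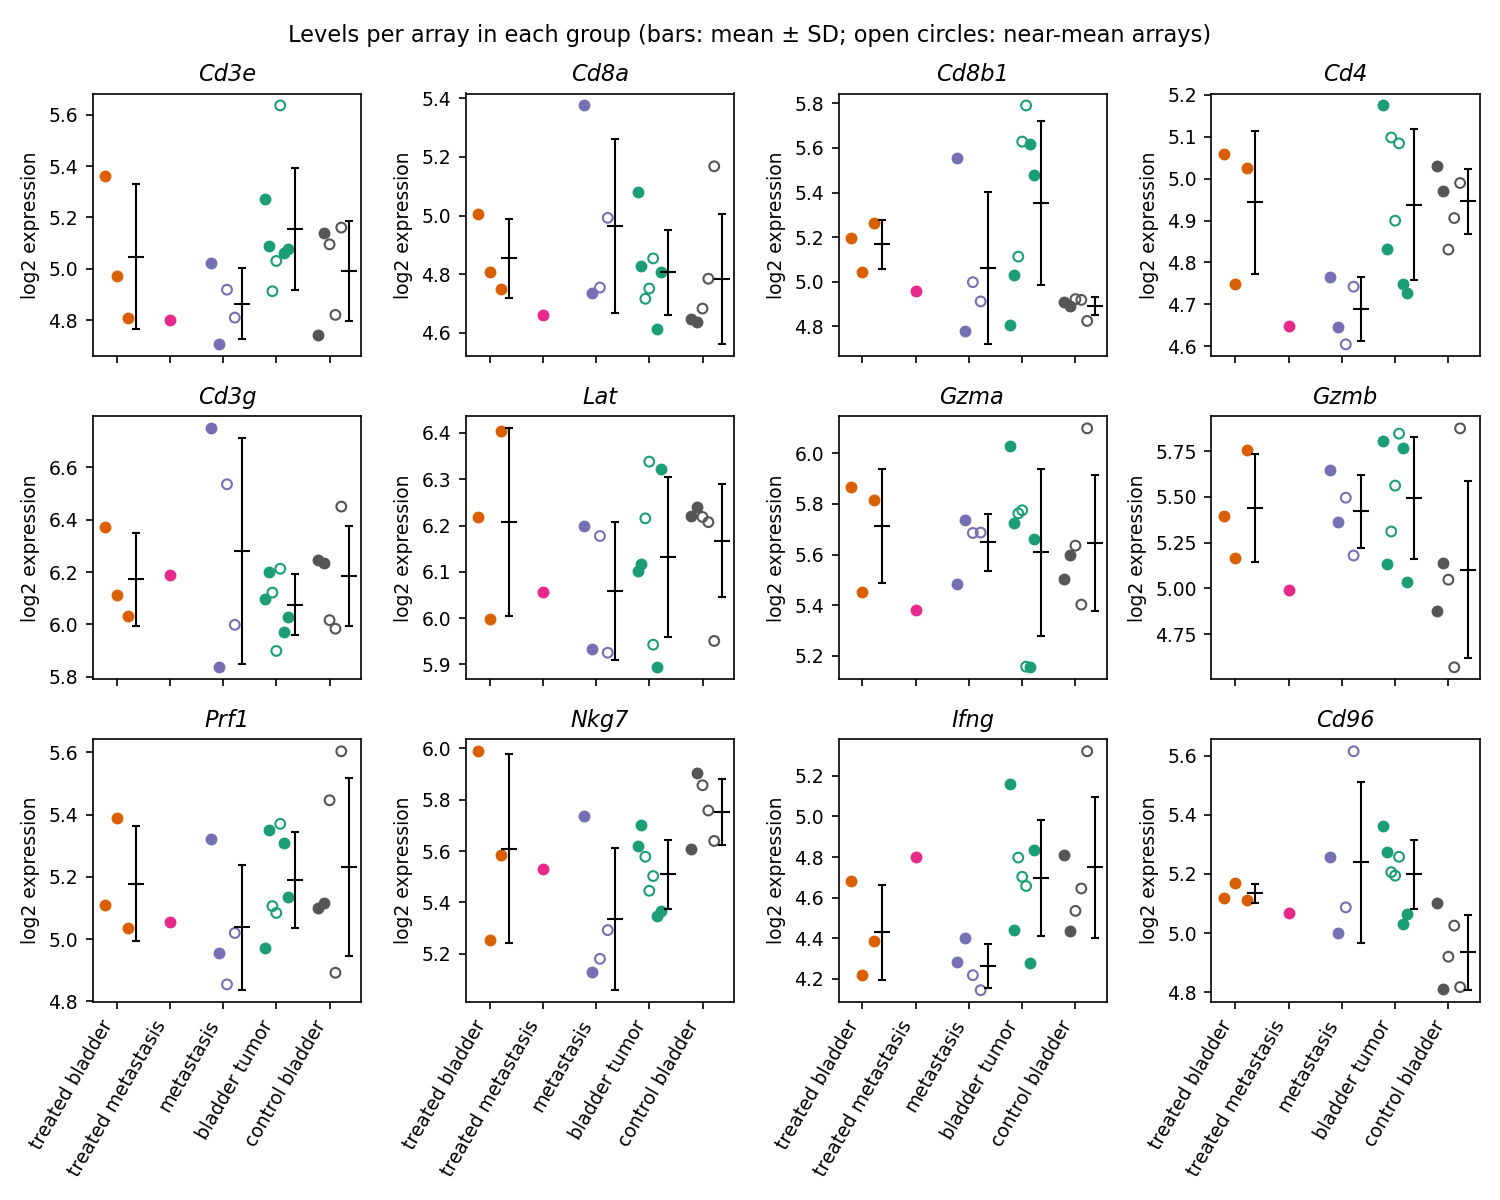
Points show log2 expression of 12 genes in each array by group, with treated bladder, treated metastasis, metastasis, bladder tumor and control bladder from left to right, and open circles mark near-mean arrays. Bars give mean and SD of groups with more than 1 array, and the Ifng panel shows 4 metastases between 4.14 and 4.40 below 5 controls between 4.44 and 5.32.

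Over the arrays, the genes of the set varied less than the receptor genes. The median range over 20 arrays was 0.58 for T cell identity genes and 0.78 for cytotoxic genes, against 1.29 for receptor genes and 0.98 for all genes. The median SD was 0.17 and 0.20, against 0.35 for receptor genes and 0.26 for all genes. Only Cd8b1 among 15 T cell identity genes and Gzmb, Ifng and Fasl among 16 cytotoxic genes had a range over 1, which is 2-fold, compared with 48.6% of all genes. Marker lists of other cells in the same arrays had wider median ranges than the set. They were 1.44 for 15 macrophage and dendritic cell genes and 1.25 for 13 neutrophil and mast cell genes. For 14 urothelium genes the median was 3.67, and for 14 smooth muscle and stroma genes 3.82. The list of 13 B and plasma cell genes, with 0.90, lay above the set but below the 0.98 of all genes. Other T cell and signalling genes (24 measured) and other cytotoxic and NK genes (29 measured) had median ranges of 0.90 each. No test of these spreads was made, since genes are not replicates.

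**Figure D3:**
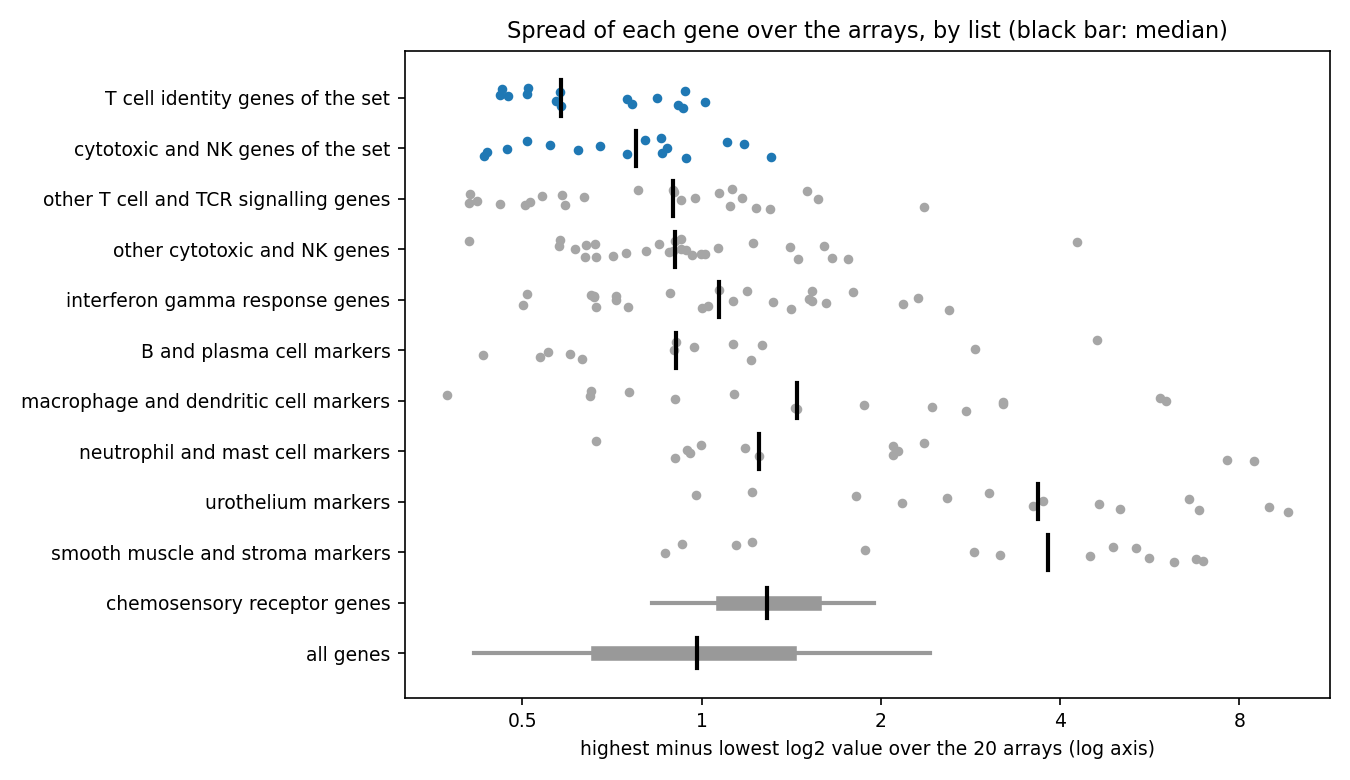
Each point is the highest minus the lowest log2 value of 1 gene over the 20 arrays, on a log axis, by gene list, with black bars at the median. For receptor genes and all genes the thick bar spans the 25th to 75th and the thin line the 5th to 95th percentile, and the T cell and cytotoxic medians of 0.58 and 0.78 lie left of the median of 0.98 over all genes.

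Single arrays carried much of the variation. In treated bladder 1, 28 of 31 genes were above their own median over the arrays, in bladder tumor 1 there were 25, and in treated bladder 3 there were 22, against 56.0%, 61.1% and 57.8% of all genes. The same arrays had the 3 highest receptor means, 5.11, 5.26 and 5.16 in this order. At the low end, 6 of 31 genes were above their median in treated bladder 2, in metastasis 2 and in bladder tumor 6, and 7 in the treated metastasis, against 44.5%, 50.6%, 39.7% and 41.8% of all genes, where receptor means were 4.78, 4.88, 4.64 and 4.62. Relative to the receptor mean of the array, the mean of the T cell identity genes was highest in metastasis 1, at 0.66, where the macrophage and dendritic cell markers also had their highest mean (7.34, against 5.56 to 6.79 in the other arrays). That of the cytotoxic genes was highest in metastasis 1 and control bladder 6, at 0.55 and 0.53. Receptor means were 4.66 and 4.90 in these 2 arrays. Before subtraction their cytotoxic means were 5.21 and 5.43, against 5.06 to 5.46 over all arrays. The T cell identity mean of metastasis 1 was then 5.33, against 5.01 to 5.36. Bladder tumor 5 held the highest value of 5 T cell identity genes (Cd3e, Cd8b1, Cd5, Cd28 and Il2ra), and control bladder 6 that of 5 cytotoxic genes (Gzma, Gzmb, Prf1, Ifng and Il2rb). Over both parts of the set bladder tumor 1 held the most, 7 (4 T cell identity and 3 cytotoxic), against 6 in each of these arrays. It also had the highest receptor mean.

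By group, the mean of the 15 T cell identity genes minus the receptor mean was 0.23 ± 0.11 in treated bladder (SD, n = 3), 0.48 in the treated metastasis, 0.34 ± 0.23 in metastasis (n = 4), 0.32 ± 0.12 in bladder tumor (n = 7) and 0.32 ± 0.04 in control bladder (n = 5). For the 16 cytotoxic genes it was 0.23 ± 0.07 in treated bladder, 0.51 in the treated metastasis, 0.32 ± 0.16 in metastasis, 0.33 ± 0.09 in bladder tumor and 0.33 ± 0.12 in control bladder. The 4 groups with replicates overlapped in both measures. The treated metastasis lay above every treated bladder and every tumor in both, and above every control in the T cell measure. Untreated metastasis 1 was higher in both, at 0.66 and 0.55. The treated metastasis also had the lowest receptor mean of all arrays, 4.62. Before subtraction its means were 5.095 and 5.125, against 5.098 to 5.364 and 5.11 to 5.46 in tumor.

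The first comparison asked whether bladders of treated mice differed from untreated tumors in lymphocyte genes. None of the 31 genes passed the test: 0 were called at an adjusted p under 0.05 (limma over all genes, Benjamini-Hochberg), as were 0% of the 30142 genes, and 0 of the 31 had an unadjusted p under 0.05, against 147 of all genes. The groups did not overlap for 0 of the 31 genes, against 0.166% of all genes. Of the T cell identity genes 10 of 15 had a higher mean in treated bladder, with a median log2 difference of 0.03, and of the cytotoxic genes 8 of 16, with a median of -0.0018, against -0.0018 over all genes. These splits depended on the scaling: with each array taken relative to its receptor mean, 1 of 15 and 3 of 16 were higher, with medians of -0.05 and -0.09, and the median of all genes was -0.09. On that scale 2 genes, Ifng (-0.35) and Cd226 (-0.31), had an unadjusted p under 0.05 and none passed, with a lowest limma adjusted p of 0.9996. Receptor means were 5.01 ± 0.21 in treated bladder and 4.93 ± 0.19 in tumor.

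The T cell and granule genes described for this comparison had differences close to 0 and intervals on both sides of it. Cd3e averaged 5.05 ± 0.28 in treated bladder and 5.15 ± 0.24 in tumor (SD, n = 3 and 7), a log2 difference of -0.11 (95% interval -0.42 to 0.21). Cd8a averaged 4.85 ± 0.13 and 4.81 ± 0.15 in the same groups, a difference of 0.05 (-0.25 to 0.35). For Cd4 the difference was 0.006 (-0.22 to 0.24). The intervals of these 3 T cell genes together reached from -0.42 to 0.35, where 1 is a 2-fold change in signal. All 3 were above background in 0 arrays, so these intervals do not bound the change in RNA. Gzma differed by 0.10 (-0.28 to 0.48), Gzmb by -0.06 (-0.55 to 0.43) and Prf1 by -0.01 (-0.32 to 0.30). The smallest p-values belonged to Cd8b1 (-0.19, SE 0.19) and Cd3e (SE 0.15) among T cell identity genes and to Ifng and Cd226 among cytotoxic genes. Ifng averaged 4.43 ± 0.23 in treated bladder and 4.70 ± 0.29 in tumor, a difference of -0.27 (SE 0.18, limma unadjusted p = 0.163), and Cd226 differed by -0.22 (SE 0.16). The adjusted p was 1.0 for each. Leaving out 1 array turned the sign of 5 of these differences, those of Cd3e (without treated bladder 3), Cd8a (without treated bladder 1), Gzmb (without treated bladder 2 or tumor 5), and Cd4 and Prf1 (without either treated bladder 1 or 3 or any of several tumors).

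No treated array is near-mean, so the comparison was repeated within the other 12 arrays, with 3 treated bladders and 4 tumors. There 9 of 15 T cell identity genes and 9 of 16 cytotoxic genes had a higher mean in treated bladder, and again 0 passed. Relative to the receptor mean these counts were 3 of 15 and 1 of 16.

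**Figure D4:**
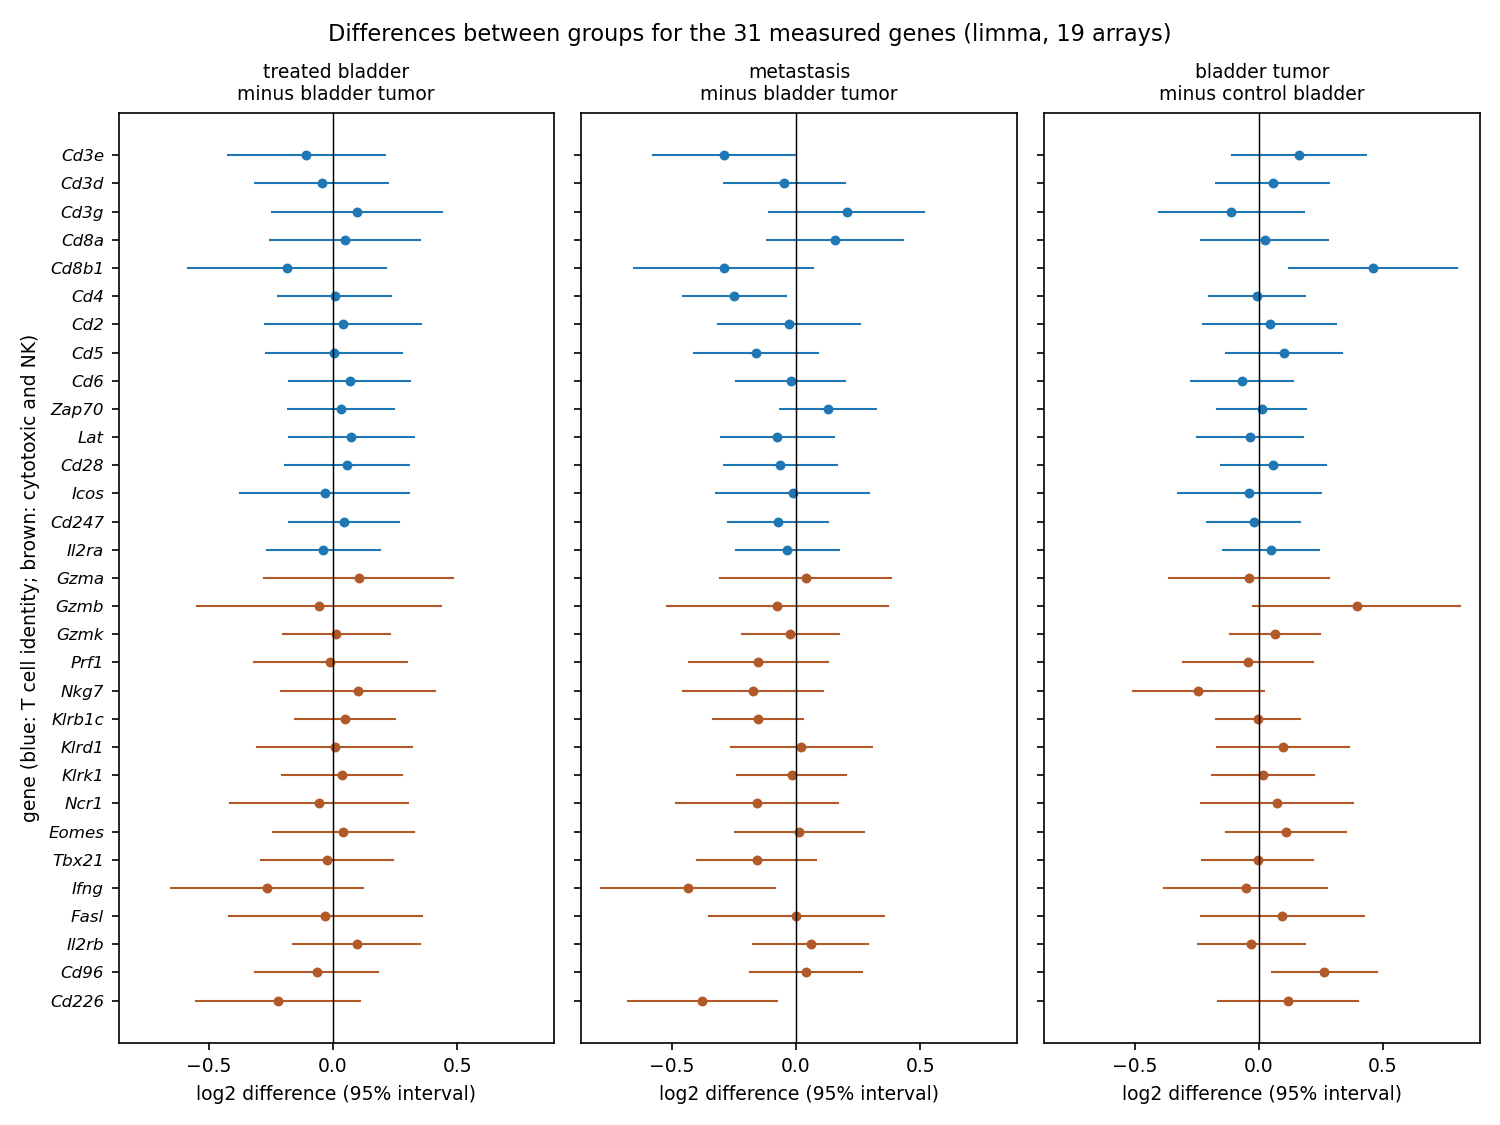
Points give the log2 difference of each of the 31 genes in treated bladder minus bladder tumor, metastasis minus bladder tumor and bladder tumor minus control bladder, and lines the 95% interval of the limma fit to 19 arrays. No gene passed at an adjusted p under 0.05; the intervals that leave out 0 before adjustment are those of Cd3e, Cd4, Ifng and Cd226 in metastasis minus bladder tumor and of Cd8b1 and Cd96 in bladder tumor minus control bladder.

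The comparison of tumor with control bladder asked how the set stood before treatment. Again 0 of 31 genes passed, with 2 at an unadjusted p under 0.05 (Cd8b1 and Cd96) against 1291 of 30142 genes. The groups did not overlap for 0 of 31, against 0.179% of all genes. Cd8b1 averaged 5.35 ± 0.37 in tumor and 4.89 ± 0.04 in control (n = 7 and 5), a log2 difference of 0.46 (SE 0.16, limma adjusted p = 0.999). Tumors 4 to 7 read 5.48 to 5.79 and tumors 1 to 3 read 4.81 to 5.11. Without the near-mean arrays, among them tumors 4 and 5, the difference of Cd8b1 was 0.34 (SE 0.26), and 0.25 when also taken relative to the receptor mean. The only controls left there are the 2 with high Xist. Cd96 averaged 5.199 ± 0.12 and 4.93 ± 0.13, a difference of 0.26 (SE 0.10). Gzmb differed by 0.39 (SE 0.20) and Cd3e by 0.16 (SE 0.13). The adjusted p of all 4 was 0.999. In this comparison 9 of 15 T cell identity genes and 9 of 16 cytotoxic genes were higher in tumor, with medians of 0.02 and 0.04 against 0.01 over all genes. Relative to the receptor mean 6 of 15 and 8 of 16 were, and the median of all genes was -0.04.

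Treated bladder was also set against control bladder. Here 0 of 31 genes passed and 0 had an unadjusted p under 0.05, against 230 of all genes. On the log2 scale every treated bladder lay above every control for Cd8b1 and Cd96. These are 2 of 31 genes, against groups that did not overlap for 1.19% of all genes. By percentile among the receptor genes of the same array, both genes overlapped. Cd8b1 was at 59.3 in treated bladder 1 and 63.0 in control 1, and Cd96 at 52.0 in treated bladder 3 and 76.0 in control 1. Cd8b1 read 5.05 to 5.26 in treated bladder and 4.82 to 4.92 in control, a difference of 0.27 (SE 0.20). Cd96 read 5.11 to 5.17 in treated bladder and 4.81 to 5.10 in control, a difference of 0.20 (SE 0.12). Ifng differed by -0.32 (SE 0.19) and Cd28 by 0.11 (SE 0.13), and relative to the receptor mean the difference of Cd28 turned to -0.02, that of Cd8b1 was 0.14, that of Cd96 0.07 and that of Ifng -0.45. The limma adjusted p was 1.0 for each of the 4. Of the T cell identity genes 11 of 15 and of the cytotoxic genes 11 of 16 were higher in treated bladder, with medians of 0.04 and 0.06 against 0.01 over all genes. Relative to the receptor mean 1 of 15 and 3 of 16 were, and the median of all genes moved to -0.12. The treated arrays belong to the 12 outside the near-mean set, in which only control bladder 1 and 2 remain, the controls with high Xist.

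In metastasis no gene passed against tumor or control. Against tumor, 0 of 31 genes passed, 4 had an unadjusted p under 0.05 (Cd3e, Cd4, Ifng and Cd226) against 1810 of all genes, and groups did not overlap for 0 of 31, against 0.514%. Ifng averaged 4.26 ± 0.11 in metastasis and 4.70 ± 0.29 in tumor (n = 4 and 7), a log2 difference of -0.43 (SE 0.17). Cd226 averaged 5.01 ± 0.14 and 5.38 ± 0.20, a difference of -0.38 (SE 0.14). Cd4 differed by -0.25 (SE 0.10) and Cd3e by -0.29 (SE 0.14). The limma adjusted p was 0.825 for all 4. In metastasis 3 of 15 T cell identity genes and 6 of 16 cytotoxic genes were higher than in tumor, with medians of -0.05 for both against -0.03 over all genes. Relative to the receptor mean, which was 4.84 ± 0.12 in metastasis and 4.93 ± 0.19 in tumor, the counts were 11 of 15 and 9 of 16. The medians on that scale were 0.04 for both, against 0.06 over all genes.

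Against control bladder, 0 of 31 genes passed and 4 had an unadjusted p under 0.05 (Cd4, Nkg7, Ifng and Cd96) against 2146 of all genes. For Cd4 and Ifng every metastasis lay below every control, 2 of 31 genes, against groups that did not overlap for 2.95% of all genes. Nkg7 averaged 5.34 ± 0.28 in metastasis and 5.75 ± 0.13 in control (n = 4 and 5), a difference of -0.42 (SE 0.14). Ifng averaged 4.26 ± 0.11 and 4.75 ± 0.35, a difference of -0.49 (SE 0.18), and both had a limma adjusted p of 0.676. Cd96 had the opposite direction, with 5.24 in metastasis and 4.93 in control, a difference of 0.31 (SE 0.11, limma adjusted p = 0.676). Cd4 differed by -0.26 (SE 0.11, limma adjusted p = 0.679) and Zap70 by 0.14 (SE 0.10). Of the T cell identity genes 7 of 15 and of the cytotoxic genes 8 of 16 were higher in metastasis, and relative to the receptor mean 8 of 15 and 9 of 16 were. The median of all genes was then 0.02. Both comparisons of metastasis share the metastasis arrays, so their values are not independent. Without the near-mean arrays, 2 metastases, 4 tumors and 2 controls remained, and Ifng differed by -0.33 from tumor and by -0.28 from control. These 2 controls are the arrays with high Xist, so differences from control there cannot be told apart from the difference that Xist marks. Taken also relative to the receptor mean, Ifng differed by -0.17 from tumor and by -0.20 from control, Cd3e by -0.09 from tumor and Cd226 by -0.26 from tumor.

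Marker lists of other cells had no called gene in these comparisons, and their levels differed between arrays. The mean of the 15 macrophage and dendritic cell genes was 5.80 to 6.05 in treated bladder, 6.79 in treated metastasis, 6.01 to 7.34 in metastasis, 5.68 to 6.43 in bladder tumor and 5.56 to 6.27 in control bladder, and 11 of 15 were higher in metastasis than in control (median 0.44), against 47.1% of all genes. In the same comparison 1 of 14 urothelium genes (median -0.75) and 2 of 14 smooth muscle and stroma genes (median -0.48) were higher. The part of these cells, of the urothelium and stroma, and of the near-mean arrays in the differences above was not tested.

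On the log2 scale the single treated metastasis stood outside the range of the 4 untreated ones for 9 of 31 genes. It was above all 4 for 2 genes, Ifng and Cd226, against 14.4% of all genes, and below all 4 for 7 genes, against 19.1% of all genes. Ifng read 4.80 in the treated metastasis and 4.14 to 4.40 in the untreated ones, 0.54 above their mean. Cd226 read 5.39 in the treated metastasis and 4.86 to 5.14 in the others, 0.38 above their mean. The 7 lower genes were Cd8a, Cd5 and Cd28 of T cell identity and Gzma, Gzmb, Klrk1 and Eomes of the cytotoxic genes, with Gzmb at -0.43 and Cd8a at -0.30 relative to the mean of the untreated metastases. This array had the lowest receptor mean of all, 4.62, against 4.66 to 4.93 in the untreated metastases. By percentile among the receptor genes of the same array, all 7 lower genes lay inside the range of the untreated metastases. Cd8a was at 58.42 against 40.55 to 93.98, and Gzmb at 78.48 against 70.02 to 97.05. Ifng and Cd226 stayed above all 4 by this measure, and Icos, Gzmk, Ncr1 and Tbx21 were above all 4 as well.

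Whether the difference with treatment was the same in bladder and in metastasis was tested as treated bladder minus tumor, minus treated metastasis minus metastasis, over all 20 arrays, with the lone treated metastasis assumed to vary like the other groups. The standard errors thus hold no measure of spread among treated metastases, and Ifng and Cd226 are the genes already seen above to be high in that array. Of the 31 genes 0 passed and 1 had an unadjusted p under 0.05, Ifng, against 821 of all genes. Its value was -0.80 (SE 0.35, limma adjusted p = 0.984), and that of Cd226 was -0.60 (SE 0.30). Cd8a (0.35, SE 0.27) and Cd28 (0.25, SE 0.23) had the smallest p among T cell identity genes, with the same adjusted p. Relative to the receptor mean Ifng came to -1.11 and Cd226 to -0.92, Cd8a to 0.04 and Cd28 to -0.06. On that scale 1 of 15 T cell identity genes had a value above 0, against 10 of 15 without this step. The step moves every gene of the array by the same amount here, so this fall is not particular to the set.

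Genes of the wider pathways did not pass either. In treated bladder minus bladder tumor 0 genes passed in any of 8 other lists (limma, adjusted p = 1.0 for each gene named here). Of 24 other T cell and signalling genes 13 had a higher mean in treated bladder (median 0.02, against -0.0018 over all genes), with Ccr7, the lymph node homing receptor, at 0.31 (SE 0.24) and Ptprc, which encodes the leukocyte antigen CD45, at -0.47 (SE 0.41). Of 29 other cytotoxic and NK genes 15 were higher (median 0.0048), with the T cell chemokine Ccl5 at -0.34 (SE 0.25) and the lectin receptor gene Klri2 at 0.16 (SE 0.16). Of 25 interferon gamma response genes 8 were higher (median -0.05), with Cxcl10, a chemokine that draws T cells, at -0.31 (SE 0.20) and the class II antigen gene H2-Eb1 at 0.18 (SE 0.13). The lists of other cells follow for comparison. Of 13 B and plasma cell genes 2 were higher (median -0.07), with Ighm at -0.78 (SE 0.63) and Jchain at -0.55 (SE 0.46), both antibody genes. Of 15 macrophage and dendritic cell genes 2 were higher (median -0.19), with C1qc at -0.19 (SE 0.16) and Fcgr1 at -0.36 (SE 0.32). Of 13 neutrophil and mast cell genes 1 was (median -0.10), with S100a9 at -1.21 (SE 1.01) and Kit at 0.11 (SE 0.10). Of 14 urothelium genes 13 were higher (median 0.42), with the keratin genes Krt7 at 0.44 (SE 0.33) and Krt18 at 0.88 (SE 0.84). Of 14 smooth muscle and stroma genes 9 were higher (median 0.14), with Col3a1 at -0.39 (SE 0.30) and Kdr at 0.15 (SE 0.12). In the other 5 comparisons 0 genes of these lists passed either.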

How the data were processed

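Per the labels' protocols, RNA came from an extraction kit made for fixed and embedded (FFPE) tissue, and 12 ng from each of 20 samples was put on an Affymetrix whole-transcript array. The authors deposited log2 values. The submitters' processing notes name RMA and Affymetrix Expression Console; their versions and settings are not given in these sources. RMA is meant to equalise the distributions of the arrays, so overall RNA amount is not read. In the deposited values the median of all rows still ran from 5.07 in bladder tumor 6 to 5.42 in bladder tumor 1. Values ran from 2.29 to 22.0, and 284 of 65956 rows held values over 16, the log2 limit of a 16-bit scanner.

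The platform annotation gave the gene names (30604 rows with 1 symbol, 2146 with several and not used, 33206 unnamed here), and 827 of 22818 symbols looked up in the GRCm38.p6 gene table were updated, giving 30142 genes. Group means were fitted with limma 3.58.1 (R 4.3.3; lmFit, eBayes) to the 19 arrays in groups with replicates, and to all 20 for the treatment difference between sites. Two-sided p-values were corrected over all genes by the Benjamini-Hochberg procedure, and a gene was called at an adjusted p under 0.05. The code was tested on simulated data. Array background was the 95th percentile of 1561 chemosensory receptor genes.

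Levels per array are given for 13 set genes, and differences for the 2 T cell identity genes and the 2 cytotoxic genes with the smallest p in a comparison, plus Cd3e, Cd8a, Cd4, Gzma, Gzmb, Prf1 and Ifng for treated bladder minus tumor, and for the 2 genes with the smallest p in each other list. Foxp3, also due by this rule, is not reported. Other genes are given by range and count; genes named by an unadjusted p, a highest value or a gap between groups were chosen after their values were seen. The set, the lists and the tests were chosen with earlier results of these data known. The labels do not state that a shared replicate number marks a shared animal, and the main fits used no pairing. Deviations from group means of 20 same-number pairs correlated from -0.51 to 0.44, and 3 exceeded 0.1. With so few arrays behind each group mean, these correlations cannot decide whether samples were paired. Alternatives were the 2 groups alone, array weights, another prior, centring on receptor genes, repeated quantile normalization, a filter on dim genes, the mean of a gene's rows, a replicate block, leaving out the near-mean arrays or each array, and, chosen after seeing the data, leaving out near-mean arrays with centring.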

Additional observations from a re-analysis of the deposited data

Results flagged for a closer look

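In 6 of 93 sets of values (a gene in a group of 4 to 10 arrays), 1 array stood apart from the others of its group by the gap test of Dixon, at a level that chance reaches in about 1 set of 20. Il2rb, the interleukin 2 receptor beta chain, read 5.429 in bladder tumor 1, against 5.027 to 5.164 in the other tumors, and this array also had the highest receptor mean of all. The other 5 were in control bladder. Cd8a read 5.168 in control 6, against 4.636 to 4.784 in the other controls, and Lat read 5.951 in the same array, against 6.207 to 6.239. Cd3d read 5.131 in control 4, against 4.883 to 4.924. Gzmk read 4.892 in control 2, against 4.691 to 4.747, and Klrk1 read 5.009 in control 1, against 5.257 to 5.281. Controls 4 and 6 are near-mean arrays.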

How the results depend on the processing

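None of the 31 genes was called in any of 179 fits, 6 comparisons under each setting and each array left out; the lowest adjusted p of a set gene in any of them was 0.169 (Nkg7, metastasis minus control, array weights). Of 259 values of the 29 named differences under other settings, 244 kept their sign and 15 turned it. In treated bladder minus tumor, centring on receptor genes gave -0.0379 for Cd8a and -0.0797 for Cd4, and without the near-mean arrays it gave -0.0518, -0.00153 and, for Gzma, -0.00496. Cd4 was -0.0151 after repeated quantile normalization, and Gzmb 0.089 with array weights and 0.00166 without the near-mean arrays. With the replicate number as a block, Cd4 was -0.0656 and Prf1 0.0524, and no count of calls moved. Leaving out 1 array gave -0.263 to 0.0123 for Cd3e, -0.028 to 0.1003 for Cd8a, -0.051 to 0.104 for Cd4, -0.215 to 0.0788 for Gzmb and -0.116 to 0.0601 for Prf1. Cd28 in treated bladder minus control was -0.0182 with centring and -0.102 with centring and without the near-mean arrays, and its treatment difference between sites was -0.0632 with centring. Without the near-mean arrays, Cd4 in metastasis minus tumor was 0.00071 (with centring) and Zap70 in metastasis minus control -0.0229. Genes of the whole array called, 0 in each comparison, became, without the near-mean arrays, 1 (1 with centring) in tumor minus control, 1 and 1 in treated bladder minus control, 4 and 3 in metastasis minus tumor and 5 and 3 in metastasis minus control. They were 2 with array weights and 2 with the dim-gene filter in metastasis minus tumor, and 1 in metastasis minus control with those groups alone. Leaving out 1 array gave 0 to 2 in metastasis minus tumor (2 without tumor 6 or control 5), 0 to 1 in metastasis minus control and 0 to 1 in the treatment difference between sites (1 without tumor 1 in both). The causes were not tested. Genes of the set above background numbered 0 at the 99th percentile. The dim-gene filter kept 13388 genes and 6 of the 31. No detection values were used, so signal over background beyond the receptor genes is not known here.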
